A study of Mus musculus with 12 samples.

Results

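The genes Rgs5, Kcnj8, Abcc9, Cspg4, Anpep, Mcam, Nodal and Higd1b, which mark brain pericytes, were followed through vessel fragments from mice without the receptor Notch3. These 8 genes were chosen by name, with earlier results of these data known. A gene was represented by the probe set with the highest mean over the 12 arrays among those annotated to it alone. The array held 15 probe sets for these genes out of 45101 in all. Of the 8 genes, 7 passed the filter on low values and were tested among 11727 genes; Anpep did not pass.

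The groups were vessel fragments of the cerebrum of Notch3 knockout mice, of the cerebrum of wildtype littermate controls, of the cerebellum of the knockouts and of the cerebellum of the controls, with 3 arrays each. All mice were on a C57BL/6 background and 2 months old, and the regions came from the same 6 mice, the replicate number in a title being taken as the mouse. Expression was read on Affymetrix Mouse Genome 430 2.0 arrays, and every level below is a log2 value made by the authors with GCRMA. The sources used here do not say how the knockout allele was made.

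Pericytes are the cells that wrap capillaries inside the basement membrane, next to the endothelium, and together with arterial smooth muscle cells they make up the mural cells of a vessel. Notch3 is their main Notch receptor. When a ligand on a neighbouring cell binds it, its inner part is cut free and enters the nucleus, where it acts on genes through the DNA-binding protein RBPJ. Kcnj8 and Abcc9 encode the pore (Kir6.1) and the regulatory subunit (SUR2) of an ATP-sensitive potassium channel, KATP, which opens when ATP falls and so relaxes mural cells. Rgs5 speeds the switching off of G proteins. Cspg4 (the proteoglycan NG2), Mcam (the adhesion molecule CD146) and Anpep (aminopeptidase N, CD13) are surface proteins used to mark pericytes. Nodal is a secreted ligand of the TGF-beta family best known from the early embryo, and Higd1b is a small protein of the hypoxia-inducible domain family.

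The label of the tissue and of the genotype was checked first. Pdgfrb and Vtn, which define pericytes, read 13.32 to 14.39 and 13.83 to 14.47 on all 12 arrays. The endothelial markers Cldn5, Cdh5 and Pecam1 read 14.75 to 15.03, 11.54 to 12.02 and 10.26 to 10.81. Markers of other cells were also high, with Acta2 (smooth muscle) at 14.28 to 14.89, Cx3cr1 (microglia) at 12.16 to 14.01 and Mbp (oligodendrocytes) at 12.01 to 13.98. Col1a1 (fibroblasts) read 3.34 to 3.99 and Rbfox3 (neurons) 4.48 to 5.77. Notch3 read 2.48 to 3.15 in knockout and 10.84 to 11.61 in control cerebral vessels, and 2.48 to 3.58 in knockout and 11.73 to 12.02 in control cerebellar vessels. The median of all values on the arrays was 3.27, so Notch3 was near background in all 6 knockout arrays. Within groups, arrays were alike (r of 0.991 to 0.996 over genes, which are not independent), and the medians of the arrays lay between 3.24 and 3.30. Xist, a transcript of female cells, read 12.86 to 13.31 on 8 arrays and 2.75 to 2.87 on the other 4, which came from knockout mouse 2 and control mouse 3.

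The promoters of the KATP subunits and of a pair of the other genes are shown here because the results separate them: Kcnj8 and Abcc9, which are neighbours on chromosome 6 with 0 protein-coding genes between them, against Cspg4 and Nodal. Each window runs from 250 bases before to 50 bases after the annotated start of the gene (RefSeq, GRCm38.p6) and is written 5′ to 3′ on the strand of the gene. Capitals mark the letters TGGGAA, the core of the sequence that RBPJ binds, found on either strand.
Kcnj8 promoter, chr6:142571565-142571864, minus strand: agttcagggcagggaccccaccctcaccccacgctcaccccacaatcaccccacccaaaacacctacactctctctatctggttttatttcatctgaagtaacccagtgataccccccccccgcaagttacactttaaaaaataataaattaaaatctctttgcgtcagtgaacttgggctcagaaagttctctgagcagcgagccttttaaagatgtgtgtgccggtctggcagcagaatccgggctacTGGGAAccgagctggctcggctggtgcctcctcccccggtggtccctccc
Abcc9 promoter, chr6:142702225-142702524, minus strand: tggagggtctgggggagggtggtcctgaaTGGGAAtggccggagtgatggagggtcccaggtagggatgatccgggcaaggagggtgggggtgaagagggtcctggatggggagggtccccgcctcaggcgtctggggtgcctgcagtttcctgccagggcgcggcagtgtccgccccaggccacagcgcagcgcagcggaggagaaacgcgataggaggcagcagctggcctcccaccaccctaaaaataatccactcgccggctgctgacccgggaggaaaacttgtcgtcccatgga
Cspg4 promoter, chr9:56864854-56865153, plus strand: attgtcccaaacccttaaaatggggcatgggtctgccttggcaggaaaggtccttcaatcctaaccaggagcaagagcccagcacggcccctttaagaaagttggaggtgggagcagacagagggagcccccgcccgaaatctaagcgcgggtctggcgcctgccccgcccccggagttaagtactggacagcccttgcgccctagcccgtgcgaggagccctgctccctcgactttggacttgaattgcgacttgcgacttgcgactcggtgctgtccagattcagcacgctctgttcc
Nodal promoter, chr10:61417722-61418021, plus strand: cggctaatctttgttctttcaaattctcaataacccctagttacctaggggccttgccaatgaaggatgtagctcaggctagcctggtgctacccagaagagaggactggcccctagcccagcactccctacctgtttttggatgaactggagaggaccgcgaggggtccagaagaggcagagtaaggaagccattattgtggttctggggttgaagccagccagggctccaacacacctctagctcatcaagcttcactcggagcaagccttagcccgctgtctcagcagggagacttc
Promoter windows were found for 7 of the 8 genes. The TGGGAA core was present once in the Kcnj8 window, from its base 251, and once in the Abcc9 window, from its base 30, both on the strand of the gene, and it was in neither orientation in the windows of Rgs5, Cspg4, Anpep, Mcam and Nodal. Of all 32851 windows of this length 25.6% held it, so a match in 2 of 7 is close to that share. The CArG box, the element bound by serum response factor in muscle genes, matched none of the 7 windows and 1.63% of all.

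KATP channel genes passed no test between genotypes and were higher in cerebellar vessels. With the brightest probe sets, Kcnj8 and Abcc9 were about 0.84 to 1.02 log2 higher in cerebellar than in cerebral vessels of both genotypes. Their knockout effects there lay between -0.10 and 0.02. The dimmer Abcc9 probe sets gave -0.42 and -0.09 in cerebral and -0.30 and -0.14 in cerebellar vessels of the knockout, none of them called. Cspg4, Nodal and Higd1b were higher in cerebellar vessels as well and fell by 0.66 to 0.97 log2 in the knockout. Rgs5 gave different answers on its 4 probe sets, and Mcam passed the test in no comparison.

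**Figure D1:**
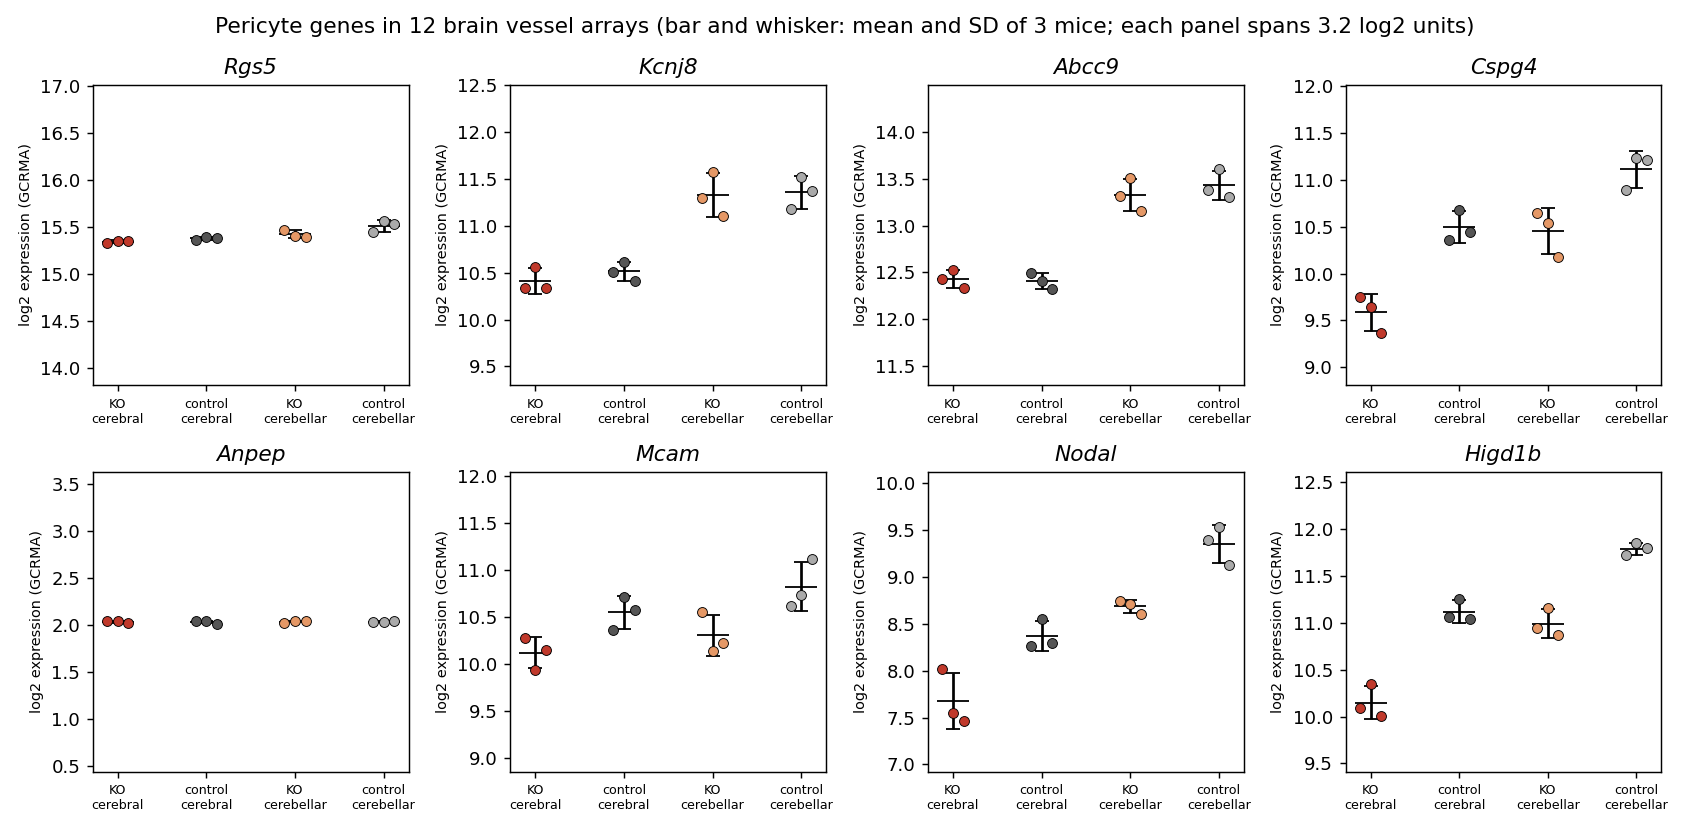
Log2 expression of the 8 genes on each of the 12 arrays (points, 3 mice per group, with mean and SD), knockout beside control within cerebral and cerebellar vessels. Kcnj8 and Abcc9 step up from cerebral to cerebellar vessels at the same level in both genotypes, Cspg4, Nodal and Higd1b are lower in the knockout in both regions, and Anpep stays at 2.02 to 2.04 on every array.

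Kcnj8, the pore of the channel, read 10.33, 10.57 and 10.33 in knockout cerebral vessels, against 10.51, 10.62 and 10.41 in control cerebral vessels. In cerebellar vessels it read 11.29, 11.58 and 11.11 in knockouts, against 11.18, 11.52 and 11.37 in controls. The genotypes overlapped in both regions, while every cerebellar array was above every cerebral one. The knockout effect was -0.10 (SE 0.13, n = 3 arrays per group, limma adjusted p = 0.725) in cerebral and -0.03 (SE 0.13, adjusted p = 0.949) in cerebellar vessels. With the regions averaged in each mouse it was -0.07 with a 95% interval of -0.34 to 0.20, so a fall of the size seen for Higd1b lay outside the interval. Cerebellar exceeded cerebral vessels by 0.84 in controls (SE 0.13, 1.79-fold, limma adjusted p = 0.0102) and by 0.92 in knockouts (SE 0.13, 1.89-fold, adjusted p = 0.00353). The call in controls was lost without control cerebellar replicate 2 (0.76, adjusted p = 0.052).

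Abcc9, the subunit that lets the channel sense nucleotides, behaved in the same way. It read 12.44, 12.53 and 12.34 in knockout cerebral vessels, against 12.49, 12.41 and 12.32 in control cerebral vessels, and the groups overlapped. It read 13.31, 13.51 and 13.16 in knockout cerebellar vessels, against 13.38, 13.60 and 13.31 in control cerebellar vessels, again with overlap. The knockout effect was 0.02 (SE 0.10, n = 3 arrays per group, limma adjusted p = 0.935) in cerebral and -0.10 (SE 0.10, adjusted p = 0.708) in cerebellar vessels. On mouse means it was -0.04, with a 95% interval of -0.25 to 0.18. Cerebellar vessels were higher by 1.02 in controls (SE 0.10, 2.03-fold, limma adjusted p = 0.00181) and by 0.89 in knockouts (SE 0.10, 1.86-fold, adjusted p = 0.00165), calls that were kept in every alternative run. The dimmer probe sets gave 1.28 and 1.46 in controls and 1.23 and 1.58 in knockouts, all past the threshold, and knockout effects of -0.12 and -0.36 on mouse means that were not (limma adjusted p = 0.64 and 0.353).

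Kcnj8 and Abcc9 also varied together between mice. In all 6 mice both were higher in the cerebellum, by 0.66 to 1.01 log2 for Kcnj8 and by 0.82 to 1.19 for Abcc9. Their levels correlated with r = 0.980 over the 12 arrays and with r = 0.831 after the group means were taken out, both given as descriptions of arrays that share 6 mice. After the group means were taken out Higd1b correlated with Kcnj8 with r = 0.888 and with Abcc9 with r = 0.693. Replicate 2 was highest for both genes in both cerebellar groups, and replicate 3 was lowest for both in knockout cerebellar vessels.

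Among the other genes of the inward rectifier family, fixed as a list of 15 that held the paralogs Kcnj11 and Abcc8, 6 passed the filter and 0 were called between genotypes in either region (limma; 0 also at an unadjusted p under 0.05). Kcnj10, an astrocyte channel, was called between regions in knockouts (1.20, n = 3 arrays per group) and 0 of the 6 were called between regions in controls (limma; 2 at an unadjusted p under 0.05). Kcnj11, the pore of the KATP channel of pancreatic beta cells, had a knockout effect of 0.07 in cerebral and 0.01 in cerebellar vessels, and Abcc8, its regulatory subunit there, one of 0.01 in both. The regional differences in controls were 0.06 for Kcnj11 and 0.01 for Abcc8.

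Rgs5, one of the brightest genes on the array, depended on the probe set. The brightest one read 15.33, 15.35 and 15.35 in knockout cerebral vessels, against 15.36, 15.39 and 15.38 in control cerebral vessels. It read 15.47, 15.40 and 15.39 in knockout cerebellar vessels, against 15.44, 15.57 and 15.53 in control cerebellar vessels. The highest value of any probe set was 16.29, so these values lay near the upper end of the scale. The groups were separate in cerebral and overlapped in cerebellar vessels, and the knockout effect was -0.04 (SE 0.05, n = 3 arrays per group, limma adjusted p = 0.75) in cerebral and -0.09 (SE 0.05, adjusted p = 0.415) in cerebellar vessels. The regional difference was 0.13 (adjusted p = 0.23) in controls and 0.08 (adjusted p = 0.411) in knockouts.

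The other 3 probe sets of Rgs5, at mean log2 levels of 14.02, 12.15 and 10.93, showed a fall. The one at 14.02 read 13.89, 13.99 and 13.72 in knockout cerebral vessels against 14.17, 14.17 and 14.15 in control cerebral vessels. In cerebellar vessels it read 13.76, 13.81 and 13.62 in knockouts against 14.28, 14.34 and 14.31 in controls. Knockout and control arrays did not overlap in either region for any of these 3 probe sets. With every probe set tested on its own, the 3 changes on mouse means were -0.44, -0.56 and -0.53 (SE 0.07, 0.10 and 0.08, n = 3 mice per genotype, limma adjusted p = 0.0295, 0.0377 and 0.0203). In cerebellar vessels they were -0.58, -0.67 and -0.59, all called, and in cerebral vessels -0.29, -0.46 and -0.48, of which the -0.46 was not called (adjusted p = 0.0724). With the mean of the 4 probe sets in place of the brightest, Rgs5 was called lower in cerebral vessels (-0.32, limma adjusted p = 0.023), in cerebellar vessels (-0.48, adjusted p = 0.00238) and on mouse means (-0.40, adjusted p = 0.0208). Between regions, the 3 dimmer probe sets gave 0.14, 0.46 and 0.51 in controls and -0.14, 0.24 and 0.39 in knockouts, of which those of the dimmest, 0.51 and 0.39, were called (limma adjusted p = 0.025 and 0.0365). A part of signal saturation in the flat reading of the brightest probe set was not tested.

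**Figure D2:**
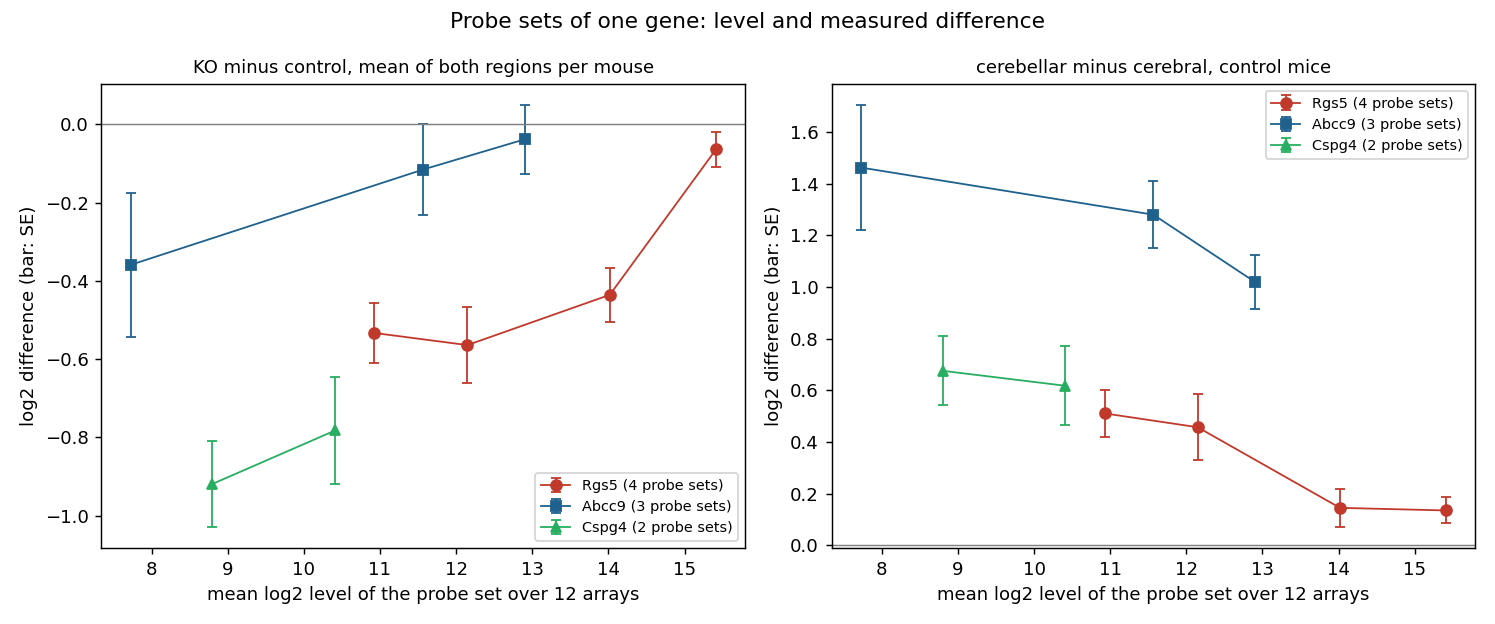
Log2 difference (bar, SE) of each probe set of Rgs5, Abcc9 and Cspg4 against its mean log2 level over 12 arrays, for knockout minus control on mouse means and for cerebellar minus cerebral in controls. The brightest Rgs5 probe set, at 15.41, has the smallest knockout effect of its gene (-0.06), and within Abcc9 and Cspg4 the dimmer probe sets also give the larger differences.

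The neighbour of Rgs5 on chromosome 1 is Rgs4, with 0 protein-coding genes between them. Rgs4, a regulator of the same kind, fell by 0.66 log2 in cerebral and by 0.58 in cerebellar vessels of the knockout (limma, both called, n = 3 arrays per group) and was higher in cerebellar vessels by 0.47 in controls and by 0.54 in knockouts. In the list of 18 other Rgs genes 12 were tested. Rgs4 was the one called lower in each region, and Rgs10, a gene strongly expressed in microglia, was called higher in cerebral vessels (0.92). The median of the 12 was 0.08 in cerebral and 0.13 in cerebellar vessels, against -0.01 and 0.01 for all genes tested.

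Cspg4, the NG2 proteoglycan, was lower in the knockout in both regions. It read 9.75, 9.64 and 9.37 in knockout cerebral vessels, against 10.36, 10.68 and 10.44 in control cerebral vessels. It read 10.64, 10.54 and 10.18 in knockout cerebellar vessels, against 10.89, 11.23 and 11.21 in control cerebellar vessels. Every knockout array was below every control array of its region, and the knockout cerebellar arrays overlapped the control cerebral ones. It fell by 0.91 (SE 0.15, n = 3 arrays per group, 1.88-fold lower, limma adjusted p = 0.00654) in cerebral and by 0.66 (SE 0.15, 1.58-fold lower, adjusted p = 0.0389) in cerebellar vessels. The second probe set gave -1.01 and -0.83, both called. Cerebellar vessels were higher by 0.87 in knockouts (SE 0.15, limma adjusted p = 0.00866) and by 0.62 in controls, where the call was missed (SE 0.15, adjusted p = 0.0706) but made with the mouse as replicate block (adjusted p = 0.00433). The cerebellar knockout call was lost without control cerebellar replicate 2 or 3 or without knockout cerebellar replicate 2 or 3 (-0.70 to -0.52).

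Mcam, the adhesion molecule, was lower in the knockout without passing the test. It read 10.27, 9.94 and 10.15 in knockout cerebral vessels against 10.36, 10.71 and 10.57 in control cerebral vessels, and 10.55, 10.14 and 10.23 in knockout cerebellar vessels against 10.62, 10.74 and 11.12 in control cerebellar vessels. The genotypes were separate in both regions, but the log2 differences of -0.43 (SE 0.16, n = 3 arrays per group) and -0.52 (SE 0.16) did not pass the threshold (limma adjusted p = 0.149 and 0.109). The regions overlapped in both genotypes, with cerebellar minus cerebral differences of 0.27 in controls and 0.19 in knockouts (limma adjusted p = 0.465 and 0.587). Endothelial cells also make Mcam, and which cells its signal came from was not tested.

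Anpep, CD13, had 1 probe set, which read 2.02 to 2.04 on all 12 arrays, under the median of 3.27. It was not tested, and at this signal a difference between groups was not detectable.

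Nodal was read by one responsive probe set, while its other probe set stayed at 1.97 to 2.03 on every array. It read 8.02, 7.55 and 7.46 in knockout cerebral vessels, against 8.27, 8.56 and 8.29 in control cerebral vessels. It read 8.74, 8.71 and 8.61 in knockout cerebellar vessels, against 9.40, 9.53 and 9.12 in control cerebellar vessels. The 4 groups did not overlap with each other. It fell by 0.69 (SE 0.15, n = 3 arrays per group, limma adjusted p = 0.0235) in cerebral and by 0.66 (SE 0.15, adjusted p = 0.0369) in cerebellar vessels, and was higher in cerebellar vessels by 0.98 in controls (SE 0.15, adjusted p = 0.0104) and by 1.01 in knockouts (SE 0.15, adjusted p = 0.00465). The fall was not called in cerebral vessels without control replicate 2 or knockout replicate 2 or 3 (-0.63 to -0.59), nor in cerebellar vessels without control replicate 1 or 2 or any one knockout replicate (-0.69 to -0.57), and the regional call in controls was lost without control cerebellar replicate 2 (0.89).

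Of 17 other genes of Nodal signalling, 10 were tested. Acvr2a, a type II receptor through which Nodal acts, fell by 0.49 log2 in cerebral vessels of the knockout, and 0 were called in cerebellar vessels (limma; 3 at an unadjusted p under 0.05). Acvr1b, a type I receptor, was higher in cerebellar vessels of controls by 0.37. The median of the list was 0.07 in cerebral and 0.02 in cerebellar vessels, against -0.01 and 0.01 for all genes tested.

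Higd1b had the largest knockout effect among the brightest probe sets of the 7 genes in each region, although the second Cspg4 probe set fell further. It read 10.09, 10.34 and 10.01 in knockout cerebral vessels, against 11.06, 11.26 and 11.04 in control cerebral vessels. It read 10.95, 11.16 and 10.87 in knockout cerebellar vessels, against 11.72, 11.85 and 11.80 in control cerebellar vessels. Every knockout array was below every control array of its region. It fell by 0.97 (SE 0.11, n = 3 arrays per group, 1.96-fold lower, limma adjusted p = 0.000394) in cerebral and by 0.80 (SE 0.11, 1.74-fold lower, adjusted p = 0.0016) in cerebellar vessels, and by 0.88 on mouse means (SE 0.10, n = 3 mice per genotype, adjusted p = 0.00693). These calls held without any one array or mouse. Cerebellar vessels were higher by 0.67 in controls (SE 0.11, limma adjusted p = 0.0108) and by 0.85 in knockouts (SE 0.11, adjusted p = 0.00216), and the call in controls was lost without control cerebellar replicate 2 (0.64, adjusted p = 0.0554).

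Counted together, 3 of the 7 tested genes (Cspg4, Nodal, Higd1b) were called lower in cerebral vessels and 0 higher, where 3.93% of all tested genes were called lower. The same 3 were called lower in cerebellar vessels, against 3.16% of all genes, and on mouse means, against 3%. The genes were chosen with earlier results of these data known, so these shares describe them and are no independent test. With the mean of probe sets in place of the brightest, Rgs5 was added, giving 4 of 7 lower in each of these comparisons. In that setting 486, 396 and 368 of the 11727 genes were called lower in cerebral vessels, in cerebellar vessels and on mouse means. On mouse means the call of Cspg4 was lost without any one of the 6 mice (-0.87 to -0.66) and that of Nodal without any one but knockout mouse 1 (-0.75 to -0.59). Knockout values all lay under control values for 5 of 7 genes in cerebral vessels and for 4 of 7 in cerebellar vessels, where 14.3% and 11.7% of all genes did so. The median log2 difference of the 7 was -0.43 in cerebral and -0.52 in cerebellar vessels, against -0.01 and 0.01 over all genes. In a mixed preparation such as this, fewer pericytes, less RNA per pericyte and a change in other mural cells cannot be told apart. Smooth muscle markers fell as well, with medians of -1.03 in cerebral and -1.11 in cerebellar vessels of the knockout. The part of smooth muscle cells in the changes of these genes was not tested.

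Between regions, 4 of 7 (Kcnj8, Abcc9, Nodal, Higd1b) were called higher in cerebellar vessels of controls, where 1.95% of all genes were called higher, and 5 of 7, with Cspg4 added, in knockouts, against 3.84%. The choice of the genes limits these shares in the same way. With the brightest probe set of each gene, cerebellar exceeded cerebral values in 6 of 6 mice for each of the 7 genes, as they did for 13.1% of all genes tested. The arrays of the regions did not overlap for 6 of 7, all but Mcam, in each genotype, against 10.9% of all genes in controls and 12.9% in knockouts with cerebellar arrays above. Rgs5 again depended on the probe set: the one at 14.02 was lower in cerebellar vessels in all 3 knockout mice. With the mean of probe sets in place of the brightest, 6 of 7 were called higher in controls, Cspg4 and Rgs5 (0.31, limma adjusted p = 0.0468) being added, and the same 5 in knockouts. In that setting 224 of the 11727 genes were called higher in controls and 445 in knockouts. The medians were 0.67 in controls and 0.87 in knockouts, against -0.02 and 0.00 over all genes. The interaction, the cerebellar minus the cerebral knockout effect, was called for 0 of the 7 (limma; 0 at an unadjusted p under 0.05), with values from -0.13 for Abcc9 to 0.25 for Cspg4; 0.0426% of all genes were called.

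**Figure D3:**
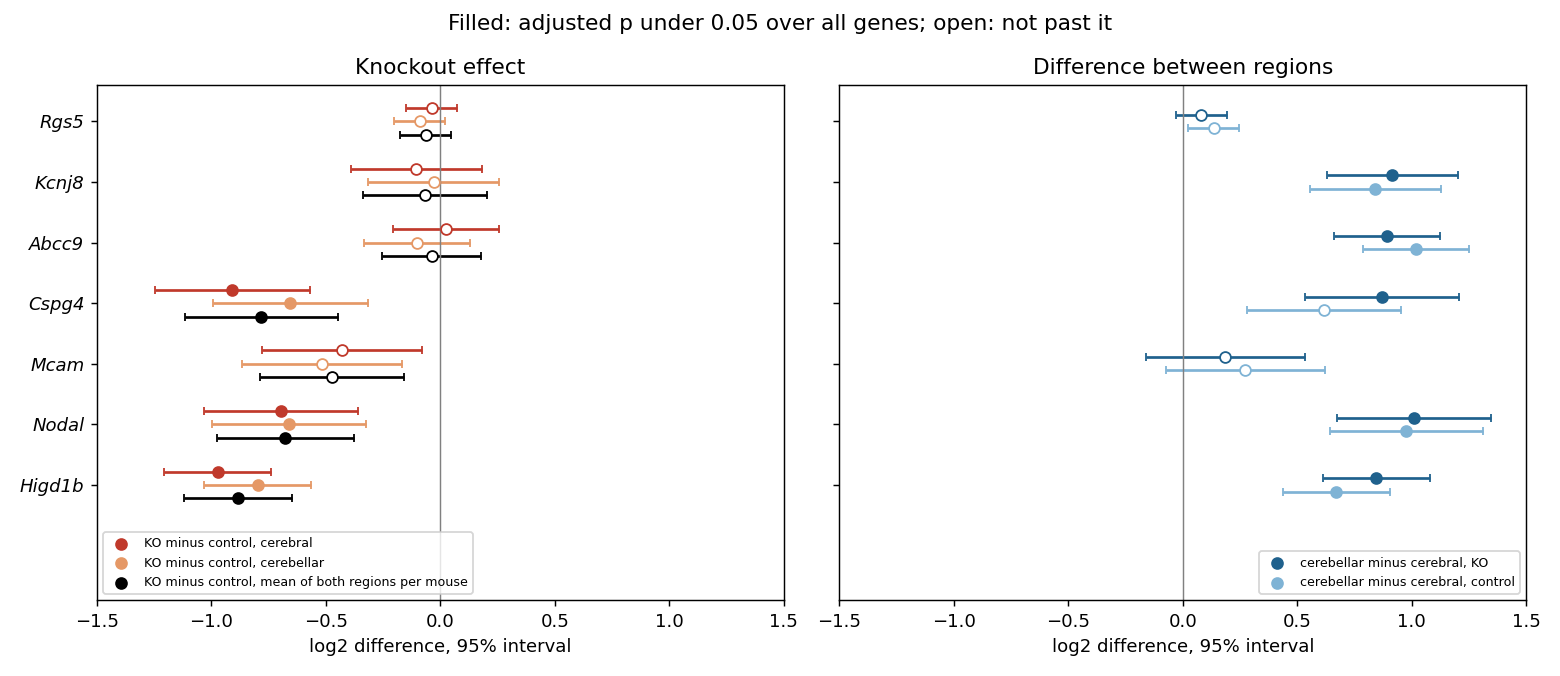
Log2 differences with 95% intervals for the 7 tested genes; filled points passed the limma threshold over all genes and open points did not. Left, knockout minus control in cerebral vessels, in cerebellar vessels and on mouse means; right, cerebellar minus cerebral in knockouts and in controls. Kcnj8 and Abcc9 sit near 0 on the left and near 0.84 to 1.02 on the right, while Cspg4, Nodal and Higd1b are displaced on both sides.

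The knockout effect and the regional difference were then set side by side, which addresses whether the pericyte genes of a preparation moved together. These comparisons share arrays, so the values are given without a test between comparisons. Higd1b and Cspg4 had a knockout effect on mouse means (-0.88 and -0.78) larger in size than their regional difference in controls (0.67 and 0.62). Nodal had -0.68 against 0.98. Abcc9, on its brightest probe set, and Kcnj8 had -0.04 and -0.07 against 1.02 and 0.84.

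The groups fell into different orders by gene. For Higd1b, Cspg4 and Mcam, the mean was highest in control cerebellar vessels and lowest in knockout cerebral vessels, and in between knockout cerebellar and control cerebral vessels overlapped and differed by 0.13, 0.04 and 0.24 (limma adjusted p = 0.492, 0.907 and 0.363, n = 3 arrays per group). For Nodal, knockout cerebellar vessels were 0.32 above control cerebral ones without passing the test (adjusted p = 0.221). For Kcnj8, the step was between regions, with knockout cerebellar vessels 0.81 above control cerebral ones (adjusted p = 0.00414). For Abcc9, knockout cerebellar vessels were 0.89 above knockout cerebral ones, the next in order (adjusted p = 0.00165).

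The difference of the KATP subunits from the other members was itself compared on mouse means. For each mouse the mean level of Kcnj8 or Abcc9 minus that of another member was taken. Against Cspg4, Nodal, Higd1b and Mcam this difference was higher in all 3 knockout mice than in all 3 controls, for both subunits, with shifts of 0.41 (Kcnj8 over Mcam) to 0.85 (Abcc9 over Higd1b). On mouse means Cspg4, Nodal, Higd1b and Mcam already lay lower in all 3 knockout mice, while the probe sets used for the subunits hardly changed. The separation of the pairings was therefore largely set in advance and is no further support. The dimmer Abcc9 probe sets, at -0.12 and -0.36 on mouse means, were not used in the pairings. Each of these 8 pairings gave an exact two-sided permutation p of 0.1, the smallest that 3 mice against 3 can give. The pairings with Rgs5 used its brightest probe set, which lay near the upper end of the scale, and nothing is read from them. In all 10 pairings were computed, and with this smallest p none can pass after adjustment over them.

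A list of 30 other pericyte genes, of which 26 were tested, was set beside these values. The list was chosen with earlier results of these data known, so it describes the values and is not an independent scale. Without Notch3, 14 of the 26 were called lower in cerebral and 11 in cerebellar vessels and 0 higher, with medians of -0.74 and -0.52. Ndufa4l2, a mitochondrial protein, Foxs1, a transcription factor, Art3 and the aminopeptidase Enpep changed most among the called genes in cerebral vessels, at -1.55, -1.44, -1.43 and -1.35. Pdgfrb, the receptor that recruits pericytes, fell by 0.48 in cerebral vessels and was at -0.26 in cerebellar vessels, and Vtn, vitronectin, was at -0.15 and -0.08; none of the last 3 values was called. On mouse means, with the brightest probe sets, 1 of the 26 had a larger value than Kcnj8 and Abcc9, whereas 14 to 17 had a larger value than Cspg4, Nodal and Higd1b. Rgs5 had no settled place, since its brightest probe set gave -0.06 and the other 3 gave -0.44, -0.56 and -0.53, against a median of -0.56 for the list.

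Between regions 9 of the 26 were called higher in cerebellar vessels of controls and 0 lower, and 16 higher and 1 lower in knockouts, with medians of 0.47 and 0.68. Vtn was higher by 0.40 and 0.47, Pdgfrb by 0.44 and 0.66, and Art3 by 0.65 and 1.02. Abcc9, Nodal and Kcnj8 exceeded the mean of the list by 0.61, 0.57 and 0.43 in controls, and 1 of the 26 lay above each of them. Higd1b and Cspg4 exceeded it by 0.26 and 0.21, and Mcam minus that mean was -0.13.

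**Figure D4:**
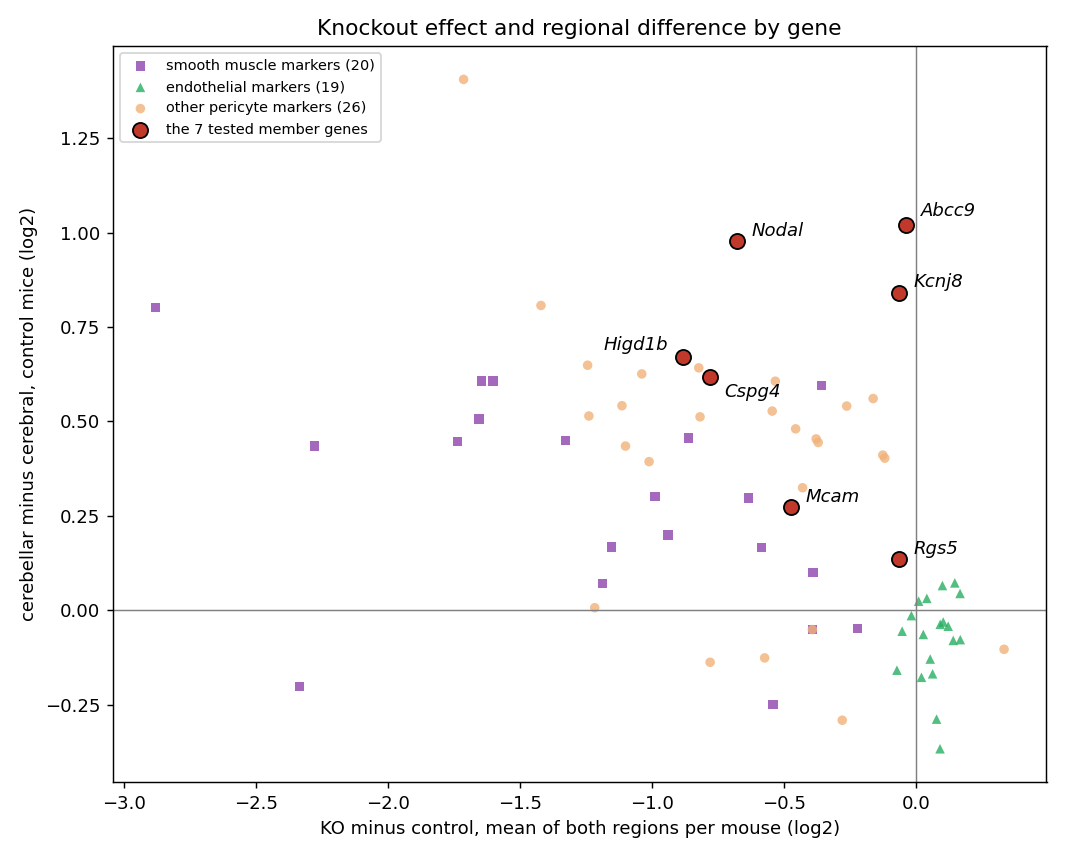
Each point is a gene, with the knockout effect on mouse means on the x axis and the cerebellar minus cerebral difference in controls on the y axis (both log2); the comparisons share control arrays. Abcc9 and Kcnj8 lie at the top right with knockout effects of -0.04 and -0.07, and the 19 endothelial markers cluster near 0 on both axes. Higd1b, Cspg4 and Nodal lie to the left. On the y axis Nodal (0.98) lies between Abcc9 (1.02) and Kcnj8 (0.84). Of the 26 other pericyte markers 1 lies above Nodal and 2 lie above Higd1b.

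Other cell types moved as follows. Of 19 endothelial markers 0 were called in any comparison (limma; 2 to 3 at an unadjusted p under 0.05 in those between genotypes or regions), with medians from -0.06 to 0.09, and the summed linear signal of the list was 311238 to 313913 in knockout and 301743 to 308733 in control cerebral vessels. Smooth muscle markers, which other mural cells carry, were called lower for 15 of 20 in cerebral and 16 of 20 in cerebellar knockout vessels, while 0 of 20 were called between regions in controls (limma; 9 at an unadjusted p under 0.05) and 2 in knockouts. Their summed linear signal was 51635 to 58075 in knockout and 87730 to 103908 in control cerebral vessels, and 55818 to 62991 in knockout and 99409 to 122133 in control cerebellar vessels. Fibroblast markers were called higher in cerebellar vessels for 4 of 14 in controls and 8 of 14 in knockouts. Between genotypes 2 of the 14 were called higher and 2 lower in knockout cerebral vessels, and 3 higher and 0 lower in knockout cerebellar vessels. Microglia markers were called higher in knockout cerebral vessels for 6 of 14 and lower in cerebellar than in cerebral vessels of knockouts for 13 of 14; in controls 0 were called between regions (9 at an unadjusted p under 0.05). Their summed linear signal was 120019 to 175026 in knockout and 76104 to 107249 in control cerebral vessels, and 77382 to 82910 in knockout and 61289 to 77251 in control cerebellar vessels.

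Astrocyte markers were called between regions for 2 of 11 in controls and 3 of 11 in knockouts, all higher in cerebellar vessels, and for 0 between genotypes (3 to 4 at an unadjusted p under 0.05 within a region). Neuron markers were called higher for 3 of 10 and lower for 1 in knockout cerebellar vessels, lower for 1 in knockout cerebral vessels, and higher in cerebellar vessels for 2 in controls and 4 in knockouts. Of 5 oligodendrocyte markers 0 were called. Gfap, a defining astrocyte marker, read 2.52 to 2.58 on all arrays. The part of these other cells in the differences of the 7 pericyte genes was not tested. With each array shifted by its mean endothelial signal, the regional differences of Abcc9, Kcnj8, Nodal and Higd1b stayed called in both genotypes. That shift averaged only -0.07 to 0.04 log2 by group, so it could hardly change these calls. It also holds no information on the other cell types, and nothing is read from it about them.

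Genes whose profile over the 12 arrays was closest to each member were taken by Pearson's r, as a description in which 4 groups and 6 mice are shared by all points. For Kcnj8 these were Wls (r = 0.993), Elovl6 (0.989) and Itgb8 (0.981), and for Abcc9 Abca4 (0.983), Sema3b (0.981) and Atp1b1 (0.977). For Cspg4 they were Sdc2 (0.990), Gucy1b1 (0.986), a subunit of the nitric oxide receptor, and Pgf (0.974), and for Higd1b they were Rgs4 (0.990), Cald1 (0.990) and Atp13a5 (0.986). For Nodal they were Naalad2 (0.980), Pdgfrb (0.966) and Ints6 (0.965), for Mcam Ltbp1 (0.948), Kank1 (0.942) and Gm13889 (0.942), and for Rgs5 Kdelr3 (0.939), Trp53inp2 (0.935) and Maged1 (0.932). No gene was among the 3 closest of more than one member.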

How the data were processed

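The deposited values were log2 expression values per probe set, which the authors made with GCRMA 2.32.0, per the submitters' processing notes; the genome build of their annotation is not given in the sources used here. GCRMA corrects background from probe sequence and normalizes across arrays, so values near background are compressed and have no order. Of 45101 probe sets, 34958 had 1 gene in the platform annotation, 932 had several, 9211 had none, and only those with 1 were named. A probe set was kept if at least 3 of 12 arrays exceeded 3.27, the median of all values, and the brightest probe set stood for its gene, leaving 11727 genes.

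Group means were fitted over all 12 arrays with limma 3.58.1 in R 4.3.3 (lmFit, eBayes), and genotypes also with both regions averaged in each mouse. P-values were adjusted over all tested genes by the Benjamini-Hochberg method, with a threshold of 0.05. The differences per mouse between a KATP subunit and another member were tested by exact permutation in scipy 1.17.1. The scripts were tested on simulated data. Regional arrays of 1 mouse deviated together (r from 0.37 to 0.70), the pairing coming from the replicate number in the titles, and the mouse as a block raised the count over all genes to 913 from 268 in controls and to 1721 from 797 in knockouts. The number of arrays limits the precision.

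Every member was named, and from each list of other genes the counts and up to 4 members with the largest change. The members and the lists were chosen with earlier results of these data known. The 3 genes closest to a member by Pearson's r were named as well.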

Additional observations from a re-analysis of the deposited data

How the results depend on the processing

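Of the 3 pericyte genes called lower without Notch3, Higd1b kept its call in both regions and on mouse means in every alternative but one, while Cspg4 (in cerebellar vessels and on mouse means) and Nodal lay closer to the threshold. In cerebral vessels Cspg4 was called in 18 of 19 settings. In cerebellar vessels 1 gene remained called with no filter on low values. There 380 of 18193 genes were called in either direction, against 494 of 11727 in the main run. Without any one array 1 to 2 members remained, with 302 to 397 of the 11727 genes called. On mouse means 1 gene remained called with no filter, with the replicate number as a replicate block, and with Xist as a covariate. Over all genes 312 of 18193, 407 and 407 were called there, against 472 of 11727 in the main run. Without any one mouse 1 to 2 members remained, with 236 to 470 of the 11727 genes called. Cspg4 was lost in each of these settings on mouse means. In controls 1 to 4 were called between regions without any one array, the lowest count, Abcc9 alone, coming without control cerebellar replicate 2, where 79 of all genes were called against 268. The numbers did not pair the genotypes (r from -0.17 to 0.26). With a replicate block the count over all genes was 1127, against 748, in cerebral vessels, and 913 and 1721 between regions (956 and 1942 with the mouse as a random replicate block), and it added Cspg4 in controls; with only the arrays of a comparison it was 310 in cerebral vessels and 322 between regions in knockouts.

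Shifting each array by the mean of the other pericyte markers adds one constant to every gene of a comparison, so a gene that fell less than those markers turns positive by construction. It moved the median of all genes by 0.74, 0.63 and 0.69 in the 3 comparisons of genotypes and called 92.2%, 89.4% and 94% of all genes, nearly all higher. There 4 members were called in cerebral vessels, 3 of them higher, 3 in cerebellar vessels and 3 on mouse means, all of these higher. Relative to those markers Kcnj8 was at 0.64, 0.59 and 0.62 in cerebral vessels, in cerebellar vessels and on mouse means. The brightest Rgs5 probe set, near the upper end of the scale, was at 0.71, 0.53 and 0.62 in the same comparisons. Its other 3 probe sets, which fell in the knockout, were not part of this setting. Abcc9 turned to 0.52 in cerebellar vessels and 0.65 on mouse means, and Nodal to 0.054 in cerebral vessels and 0.0080 on mouse means. Between regions, where 77.6% and 83.9% of all genes were called, nearly all lower, the brightest Rgs5 probe set turned to -0.27 in controls and -0.45 in knockouts. Shifting by endothelial markers left 787 genes called in cerebellar vessels, against 494, and added Mcam there. Low signal leaves Anpep unmeasured. The causes of these changes were not tested, apart from what the settings build in.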
